A study of Homo sapiens with 4 samples.

Results

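The 36 genes described here make, lengthen, desaturate and activate fatty acids. They were taken by symbol from a fixed list, and all 36 have a row in the table of 60609 gene identifiers. CCRF-CEM is an established human T cell leukaemia line, here in a derivative labelled CCRF-CEM/HA-AMPKa2 for an HA-tagged AMPK alpha 2 subunit, which both groups carry; the sources used here do not say which promoter drives it or whether the line is a single clone. Total RNA came from 2 libraries of cells kept without glucose for 24 hours (No glucose, columns ONG_9 and ONG_10) and from 2 libraries of cells kept in control medium for the same time (Ctrl, columns CTRL_7 and CTRL_8), both in RPMI with fetal bovine serum as the growth medium. The comparison asks how glucose deprivation, a metabolic stress, changes gene expression in acute lymphoblastic leukaemia cells.

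New fatty acids are built in the cytosol. Citrate that leaves the mitochondrion is cleaved to acetyl-CoA, acetyl-CoA carboxylase turns that into malonyl-CoA, and fatty acid synthase joins the units into palmitate at the expense of NADPH. In the endoplasmic reticulum palmitate and dietary fatty acids are lengthened in a repeating cycle of reactions and receive double bonds from desaturases, and acyl-CoA synthetases attach coenzyme A so that a fatty acid can be used at all. Transcription of many of these genes is driven by SREBP-1, the product of SREBF1, and AMPK restrains the pathway by phosphorylating acetyl-CoA carboxylase. A separate, smaller set of enzymes makes fatty acids inside mitochondria, chiefly the precursor of lipoic acid.

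Without glucose, 28 of the 36 genes fell and none rose. Among all 27486 genes tested, 20.7% were lower and 14.4% higher by the same rule (limma, two-sided, Benjamini-Hochberg adjusted p under 0.05), and among 10656 well-expressed protein-coding genes (mean normalized count 50 or more) the shares were 47.2% lower and 18.9% higher. The median log2 fold change of the members was -0.72, beside -0.20 for those protein-coding genes and 0.04 for all genes tested. A fall of at least 1 on the log2 scale was called for 9 members, SCD, FADS2, FASN, FADS1, ELOVL6, FADS3, SREBF1, ACACA and ACLY, beside 4.48% of all genes tested and 7.55% of the protein-coding genes. Both No glucose libraries lay below both Ctrl libraries for 34 of the 36, beside 31.7% of all genes tested and 57.9% of the protein-coding genes; ELOVL2 alone lay above, beside 35.1% and 27.4%, and ACSL1 overlapped. Together the members took 0.199% and 0.202% of all reads in the No glucose libraries, against 0.313% and 0.311% in the Ctrl libraries. In bulk RNA, fewer cells of a type and less RNA per cell cannot be told apart.

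The gene reads recovered from the normalized counts numbered 19035535 and 20081266 in the No glucose libraries, against 96698709 and 24513840 in the Ctrl libraries. Nothing in the labels says that the 2 libraries of a group came from separate cultures, and the p-values therefore reflect only how far these libraries spread, which may be technical. The line was checked against lineage markers. All 10 T-lineage markers were detected, with a summed level of 116043 to 119239 normalized counts without glucose, against 98830 to 100397 in Ctrl. Erythroid markers summed to 3.03 to 7.02 without glucose and 4.81 to 5.35 in Ctrl, and myeloid markers to 33.4 to 54.7 without glucose and 39.5 to 44.1 in Ctrl, with HBB, MPO and FCGR3A at 0 in all libraries. The 6 B-lineage markers summed to 541 to 557 without glucose, against 915 to 934 in Ctrl, with MS4A1 at 0 in 3 of the 4 libraries, and the 6 adherent cell markers to 1075 to 1204 without glucose, against 1659 to 1687 in Ctrl. These are sums, in which abundant genes weigh most, and single markers did not all move with them. Of the 10 T-lineage markers 3 were called higher and 2 lower, and of 4 adherent cell markers tested 1 was higher and 2 lower. Of 5 B-lineage markers tested, 3 were lower and none higher. The part of those shifts in the results below was not tested. PRKAA2, the gene of the tagged subunit, had 670 and 662 normalized counts without glucose, against 409 and 409 in Ctrl. Its log2 fold change was 0.70 ± 0.08 (SE, limma adjusted p = 4.5e-05), and gene counts do not separate the tagged copy from the cell's own.

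**Figure D1:**
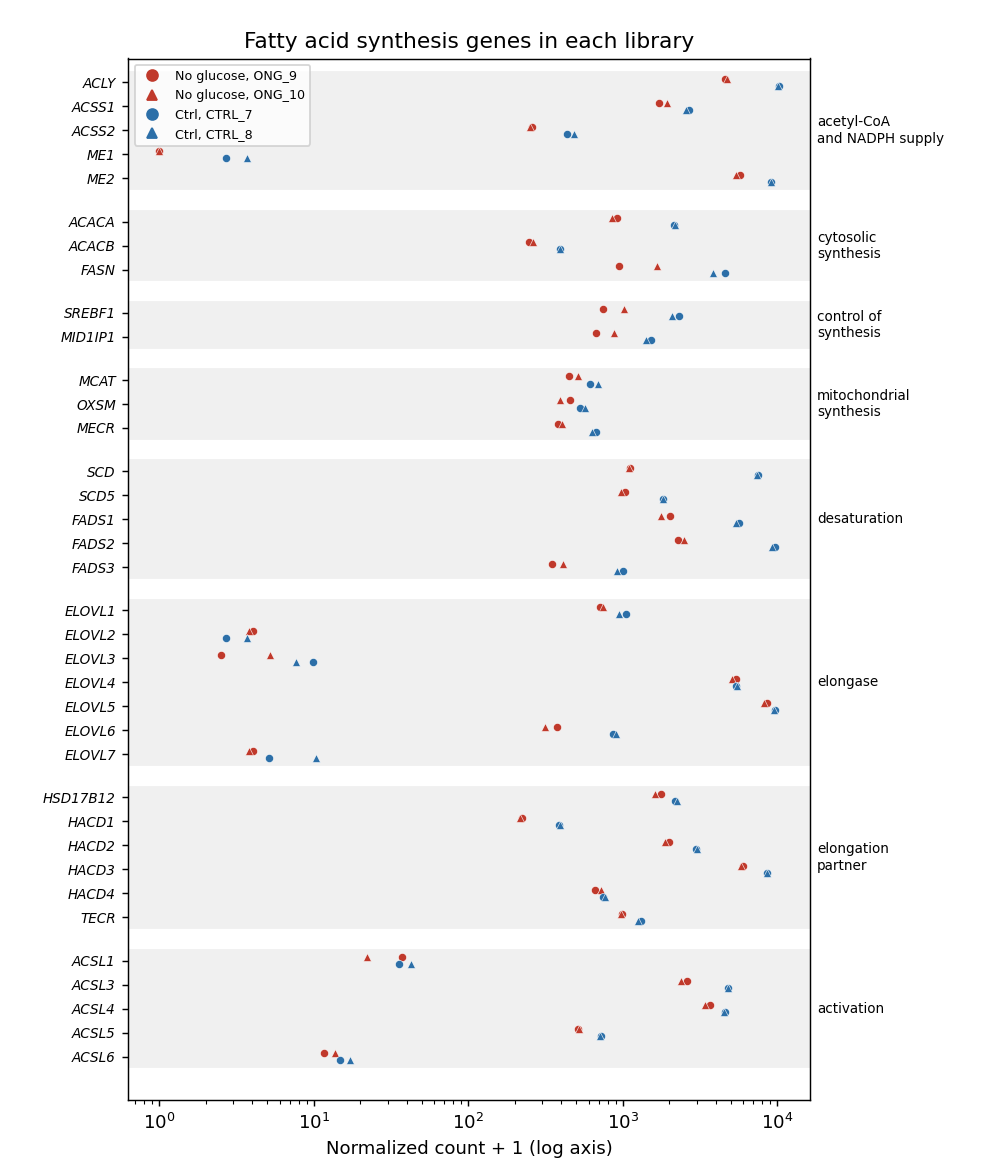
Normalized count plus 1 (log axis) of each of the 36 genes in each library, grouped by step of the pathway; red symbols are the No glucose libraries and blue symbols the Ctrl libraries. For 34 of the 36 genes both red symbols lie to the left of both blue ones; ELOVL2 and ACSL1 are the exceptions, and ME1, ELOVL2, ELOVL3, ELOVL7, ACSL6 and ACSL1 lie far below the other genes.

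Desaturases insert double bonds into acyl-CoA. All 5 desaturase genes fell, with a median log2 fold change of -1.56. SCD, the delta-9 desaturase that turns stearate and palmitate into oleate and palmitoleate, had 1119 and 1089 normalized counts without glucose, against 7469 and 7337 in Ctrl. The libraries of each group lay within a few percent of each other and the groups were far apart. Its level without glucose was 14.9% of that in Ctrl, a log2 fold change of -2.74 ± 0.06 (SE, limma adjusted p = 4.8e-10), and only 3 of the 10656 protein-coding genes had a lower fold change. FADS2, the delta-6 desaturase that opens the path to polyunsaturated fatty acids, had 2288 and 2472 normalized counts without glucose, against 9696 and 9298 in Ctrl (log2 fold change -2.00 ± 0.06, adjusted p = 6.1e-09). FADS1, the delta-5 desaturase that follows it, had 2009 and 1758 without glucose, against 5661 and 5431 in Ctrl (-1.56 ± 0.07, adjusted p = 5.4e-08). Neither gene's groups overlapped. FADS3, a relative in the same cluster that acts on sphingoid bases, had 346 and 411 without glucose, against 1007 and 911 in Ctrl, a fall of 1.34 ± 0.10 on the log2 scale. SCD5, the second human delta-9 desaturase, also fell, with 1025 and 971 without glucose, against 1811 and 1825 in Ctrl (log2 fold change -0.86 ± 0.07).

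The log2 ratio of SCD to SCD5 was 0.13 and 0.17 without glucose, against 2.04 and 2.01 in Ctrl, a difference of -1.88. An exact two-sided permutation test over the libraries gave p = 0.333, the smallest value that 2 against 2 libraries allow; the same p was found for all 8 pairs of related enzymes compared, and it stayed 0.333 after adjustment over them. On the scale of normalized counts per kilobase of exon, SCD averaged 206 ± 3.97 without glucose and 1381 ± 17.4 in Ctrl, and SCD5 averaged 233 ± 8.90 without glucose and 423 ± 2.30 in Ctrl (SD, n = 2). SCD thus stood well above SCD5 in Ctrl and slightly below it without glucose. SCD made up 22.9% ± 0.161 of the summed desaturase level per kilobase without glucose and 41.1% ± 0.307 in Ctrl, and SCD5 25.9% ± 0.673 without glucose and 12.6% ± 0.321 in Ctrl (SD, n = 2). With the longest transcript as the length, SCD made up 13.9% without glucose and 26.3% in Ctrl, and SCD5 21.7% without glucose and 11.2% in Ctrl. Without glucose the levels of SCD5, FADS2, SCD and FADS1 per kilobase of exon, 233, 216, 206 and 184, followed each other closely, and FADS2 did not differ from SCD beyond the spread of its libraries. In Ctrl the order was SCD, FADS2 (861), FADS1 (542), SCD5 and FADS3 (153). Lengths of the longest transcript put FADS2 first in both groups, at 469 without glucose and 1872 in Ctrl.

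The 3 FADS genes lie in a cluster on chromosome 11 (hg38, GENCODE 29), FADS1 at 61799625 to 61829318 on the minus strand, FADS2 at 61792980 to 61867354 on the plus strand and FADS3 at 61873519 to 61892051 on the minus strand. The annotated span of FADS2 contains that of FADS1. The exons of FADS1 and FADS2 share 490 bases on opposite strands, 4.79% of the exon length of FADS1, and since the counting strand is not given in the sources used here, reads of that stretch cannot be assigned to either gene. In RefSeq (GRCh38.p14) 1 start was taken per gene, the first listed, and other starts were not searched. Those of FADS1 (61817003, minus strand) and FADS2 (61816203, plus strand) lie 800 bases apart. The annotated spans of both genes extend beyond these starts, so each gene has other starts. How the 2 genes lie to each other at their main starts is therefore not read from these positions. Promoter windows of 300 bases, 250 before the start and 50 after it, were found for 33 of the 36 members; FASN, HSD17B12 and OXSM had none. Shown are the 3 called members with windows that fell the furthest, then MID1IP1, the member with a sterol regulatory element core, and ELOVL4, an abundant member that did not pass the test. The windows are chr10:100346983-100347282 (plus strand), chr11:61815953-61816252 (plus), chr11:61816954-61817253 (minus), chrX:38801209-38801508 (plus) and chr6:79947504-79947803 (minus). Capitals mark the CCAAT box (CCAAT), bound by NF-Y, and the core of the sterol regulatory element (TCACNCCAC), bound by SREBP, each on either strand.
SCD: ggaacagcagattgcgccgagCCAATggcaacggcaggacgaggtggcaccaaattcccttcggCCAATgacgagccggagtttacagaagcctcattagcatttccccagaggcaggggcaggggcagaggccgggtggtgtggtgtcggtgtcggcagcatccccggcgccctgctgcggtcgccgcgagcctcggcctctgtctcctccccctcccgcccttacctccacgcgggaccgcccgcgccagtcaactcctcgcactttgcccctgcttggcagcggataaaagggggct
FADS2: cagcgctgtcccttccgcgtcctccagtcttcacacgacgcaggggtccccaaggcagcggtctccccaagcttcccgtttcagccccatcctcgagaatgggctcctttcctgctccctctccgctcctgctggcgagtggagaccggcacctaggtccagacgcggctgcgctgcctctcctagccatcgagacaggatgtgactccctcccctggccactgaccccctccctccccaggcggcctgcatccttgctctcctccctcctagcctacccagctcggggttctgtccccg
FADS1: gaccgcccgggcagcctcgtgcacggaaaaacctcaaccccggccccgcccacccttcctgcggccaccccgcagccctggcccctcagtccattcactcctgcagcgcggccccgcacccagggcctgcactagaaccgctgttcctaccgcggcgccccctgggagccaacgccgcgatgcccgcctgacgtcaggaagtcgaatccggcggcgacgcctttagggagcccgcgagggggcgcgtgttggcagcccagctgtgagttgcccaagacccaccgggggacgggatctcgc
MID1IP1: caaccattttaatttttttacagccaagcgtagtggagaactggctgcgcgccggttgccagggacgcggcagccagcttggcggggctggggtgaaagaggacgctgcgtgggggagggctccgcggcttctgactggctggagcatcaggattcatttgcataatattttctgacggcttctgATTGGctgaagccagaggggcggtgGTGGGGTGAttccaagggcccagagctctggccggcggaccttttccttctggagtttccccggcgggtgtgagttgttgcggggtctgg
ELOVL4: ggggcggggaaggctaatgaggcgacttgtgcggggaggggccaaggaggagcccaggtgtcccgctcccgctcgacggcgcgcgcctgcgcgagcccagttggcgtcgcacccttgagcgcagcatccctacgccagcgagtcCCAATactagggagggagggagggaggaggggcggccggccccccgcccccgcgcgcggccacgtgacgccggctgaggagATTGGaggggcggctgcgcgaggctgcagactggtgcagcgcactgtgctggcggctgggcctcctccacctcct
The SCD window held 2 CCAAT boxes, and the windows of FADS2 and FADS1, each at the 1 start taken, held neither motif. The core TCACNCCAC was in the window of 1 of the 33 members, MID1IP1, 40 bases before its start, and in 1.15% of all 27305 windows of this length. CCAAT was in 14 of the 33 (42.4%), beside 35.7% of all windows. The GC box GGGCGG, bound by SP1, was in 28 of 33 (84.8%), beside 44.6% of all windows. The E-box CACGTG was in 2 of 33 (6.06%), ELOVL4 and ELOVL5, beside 7.43% of all windows. All motifs were searched on both strands; in the members' windows different motifs overlapped once, a CCAAT box and a GC box of ELOVL1, and matches of the same motif overlapped each other in some windows, as in ACACA, HACD1 and ME2. The windows of all genes were not limited to protein-coding or expressed genes. Their shares are therefore not a matched background for the members, and no enrichment is read from them. These matches describe letters in 300 bases and not binding.

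Palmitate itself is made by acetyl-CoA carboxylase and fatty acid synthase, and all 3 genes fell. FASN, the synthase, had 937 and 1656 normalized counts without glucose, against 4566 and 3816 in Ctrl. Its No glucose libraries differed from each other more than those of any other well-expressed member, but both lay below both Ctrl libraries. The level without glucose was 30.9% of that in Ctrl, and the log2 fold change of -1.74 carried the widest error among the called members, ± 0.19 (SE, adjusted p = 2.9e-05). ACACA, the cytosolic carboxylase that commits acetyl-CoA to synthesis, had 913 and 847 without glucose, against 2143 and 2184 in Ctrl (log2 fold change -1.30 ± 0.07, adjusted p = 1.4e-07). ACACB, the carboxylase at the mitochondrial surface whose malonyl-CoA holds back fatty acid import, had 244 and 260 without glucose, against 391 and 393 in Ctrl (-0.64 ± 0.10). ACACB made up 20.4% ± 1.56 of the carboxylase level per kilobase without glucose and 14.0% ± 0.120 in Ctrl (SD, n = 2).

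Both regulators of synthesis on the list fell. SREBF1, the gene of SREBP-1, had 746 and 1013 normalized counts without glucose, against 2297 and 2067 in Ctrl (log2 fold change -1.32 ± 0.12, adjusted p = 5.9e-06). MID1IP1, which binds acetyl-CoA carboxylase and promotes its polymerization into active filaments, had 673 and 874 without glucose, against 1513 and 1407 in Ctrl (-0.93 ± 0.11). Groups did not overlap for either gene. FASN, SREBF1 and MID1IP1 were each higher in ONG_10 than in ONG_9, by 0.82, 0.44 and 0.38 on the log2 scale, and each was slightly lower in CTRL_8 than in CTRL_7, with log2 ratios of -0.26, -0.15 and -0.10. The GC content of their longest transcripts was 65.3%, 62.8% and 56.3%. When well-expressed protein-coding genes were put into 5 equal bins by GC content, the median log2 ratio of ONG_10 to ONG_9 was 0.27 in the richest bin and -0.10 in the poorest. FASN and SREBF1 belong to the richest bin, and MID1IP1 to the next, where the median was 0.03. The other members in the richest bin, FADS2 and MCAT, had ratios of 0.11 and 0.19. The part of GC content in these differences was not tested. After a correction of each library for GC content and transcript length, a setting added after the data were seen, the log2 fold changes of FASN, SREBF1 and MID1IP1 were -1.69, -1.22 and -0.92. That correction moved the median of all genes by 0.11, and less this shift the values were -1.80, -1.33 and -1.03. SREBF1 shares 556 bases of exon with RAI1 on the opposite strand, 6.92% of its exon length, and RAI1 had 787 and 1134 normalized counts without glucose, against 1208 and 1160 in Ctrl.

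**Figure D2:**
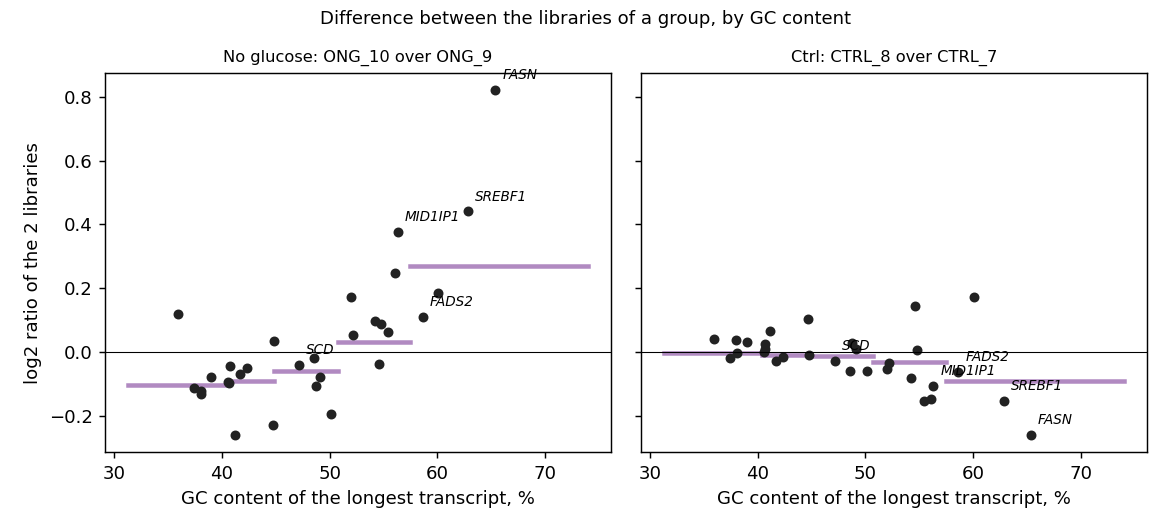
Difference between the 2 libraries of a group (log2 ratio, vertical axis) against GC content of the longest transcript, for members with mean normalized counts of 50 or more (black points); purple bars are medians of protein-coding genes in 5 bins of GC content. In the No glucose panel FASN stands at 0.82 and SREBF1 at 0.44, above the 0.27 of the bin richest in GC, while SCD lies near 0.

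Acetyl-CoA and NADPH feed the pathway. ACLY, which cleaves citrate to acetyl-CoA in the cytosol, had 4571 and 4744 normalized counts without glucose, against 10278 and 10033 in Ctrl. The groups were far apart, at 45.9% of the Ctrl level and a log2 fold change of -1.12 ± 0.05 (SE, adjusted p = 6.1e-08). The acetate-activating enzymes fell as well. ACSS2, the cytosolic and nuclear one, had 256 and 250 without glucose, against 437 and 483 in Ctrl (log2 fold change -0.86 ± 0.10), and ACSS1, the mitochondrial one, had 1716 and 1934 without glucose, against 2660 and 2568 in Ctrl (-0.52 ± 0.07). Of their summed level per kilobase, ACLY held 77.7% ± 0.681 without glucose and 83.4% ± 0.183 in Ctrl (SD, n = 2). Malic enzymes turn malate into pyruvate and yield NADPH or NADH. The mitochondrial ME2 had 5748 and 5387 without glucose, against 9110 and 9123 in Ctrl (log2 fold change -0.71 ± 0.05). The cytosolic NADPH-producing ME1 was nearly absent from these cells, with 0 and 0 reads without glucose, against 5 and 2 reads in Ctrl. A count of 0 over both No glucose libraries allows up to 2.19 normalized counts (3 reads, counting error only), so a difference was not detectable at this depth.

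Elongation in the endoplasmic reticulum begins with an ELOVL elongase, the step that fixes which chain lengths are made. Of 7 elongase genes, 3 fell and none rose, and the median log2 fold change was -0.46. Among all genes tested 20.7% were lower, and among the well-expressed protein-coding genes 47.2%, so nothing is read from this count about elongases. ELOVL6, which extends palmitate to stearate, had 373 and 311 normalized counts without glucose, against 856 and 896 in Ctrl. Its level without glucose was 39.1% of that in Ctrl, a log2 fold change of -1.36 ± 0.10 (SE, adjusted p = 1.3e-06). ELOVL1, which makes very long saturated chains, had 708 and 739 without glucose, against 1050 and 944 in Ctrl (-0.46 ± 0.08, adjusted p = 0.00088). ELOVL5, which extends polyunsaturated chains and is the most abundant elongase here, had 8592 and 8203 without glucose, against 9709 and 9535 in Ctrl (-0.20 ± 0.05, adjusted p = 0.011). The ELOVL1 call was lost without CTRL_7 (adjusted p = 0.075), and that of ELOVL5 without CTRL_7 (0.30) or CTRL_8 (0.25). ELOVL4, known for the very long polyunsaturated chains of the retina, had 5361 and 5085 normalized counts without glucose, against 5366 and 5490 in Ctrl. Its libraries lay close together across groups, with a log2 fold change of -0.06 ± 0.05, a 95% interval from -0.18 to 0.07 and an adjusted p of 0.48; without ONG_9 it was called lower (-0.09, adjusted p = 0.028). With scaling to library totals the fold changes of ELOVL5 and ELOVL4 took the opposite sign, 0.014 and 0.15, and ELOVL4 was called higher (adjusted p = 0.021); that scaling moved the median of all genes by 0.19, and less this shift the values were -0.18 and -0.04.

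ELOVL2, ELOVL3 and ELOVL7 were close to the limit of detection. ELOVL2 had 2 and 2 reads without glucose, against 5 and 2 in Ctrl. ELOVL3 had 1 and 3 reads without glucose, against 26 and 5 in Ctrl, and ELOVL7 had 2 and 2 without glucose, against 12 and 7 in Ctrl. None of the 3 passed the test, and at this depth a difference was not detectable for them. On the scale of normalized counts per kilobase of exon, ELOVL5 averaged 2202 ± 72.3 without glucose and 2523 ± 32.5 in Ctrl, ahead of ELOVL4 with 1717 ± 64.2 without glucose and 1784 ± 28.7 in Ctrl (SD, n = 2). ELOVL1 averaged 289 ± 8.85 without glucose and 398 ± 29.8 in Ctrl, and ELOVL6 46.9 ± 5.96 without glucose and 120 ± 3.86 in Ctrl. The order of these 4 was the same in both groups, and neighbours differed beyond their spread. ELOVL6 made up 1.10% ± 0.106 of the elongase level without glucose and 2.48% ± 0.0953 in Ctrl, and the log2 ratio of ELOVL5 to ELOVL6 was 4.52 and 4.71 without glucose, against 3.50 and 3.41 in Ctrl.

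The remaining reactions of the cycle are carried out by a ketoreductase, dehydratases and an enoyl reductase, and 5 of these 6 genes fell. Beside them, 20.7% of all genes tested and 47.2% of the well-expressed protein-coding genes were lower. With only 6 genes, nothing is read from this count. HSD17B12, the ketoreductase, had 1754 and 1612 normalized counts without glucose, against 2168 and 2228 in Ctrl (log2 fold change -0.39 ± 0.07). HACD3, the most abundant dehydratase, had 5997 and 5792 without glucose, against 8606 and 8513 in Ctrl (-0.54 ± 0.05). HACD2 had 2003 and 1873 without glucose, against 2984 and 3008 in Ctrl (-0.63 ± 0.06), and HACD1, known from muscle, 221 and 215 without glucose, against 383 and 389 in Ctrl (-0.82 ± 0.10). For all 6 genes, HACD4 and TECR included, both No glucose libraries lay below both Ctrl libraries. That held for 31.7% of all genes tested and 57.9% of the well-expressed protein-coding genes. HACD4 had 663 and 720 without glucose, against 741 and 764 in Ctrl, with a log2 fold change of -0.12 ± 0.08 and an adjusted p of 0.27. For HACD4 the log2 fold change was 0.087 with scaling to library totals, -0.10 less the shift of all genes, and -0.34 after the GC and length correction, where it was called lower (adjusted p = 0.0020). TECR, the enoyl reductase that closes the cycle, had 981 and 968 without glucose, against 1301 and 1249 in Ctrl (-0.39 ± 0.07, adjusted p = 0.0010; 0.078 without CTRL_7). TECR shares 211 bases of exon, 3.57% of its exon length, with DNAJB1 on the opposite strand, a chaperone gene with 18839 and 18582 normalized counts without glucose, against 2198 and 2168 in Ctrl. The exons of HSD17B12 overlap an annotated antisense transcript over 12.1% of their length, with 133 to 139 normalized counts without glucose, against 88.3 to 92.7 in Ctrl.

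**Figure D3:**
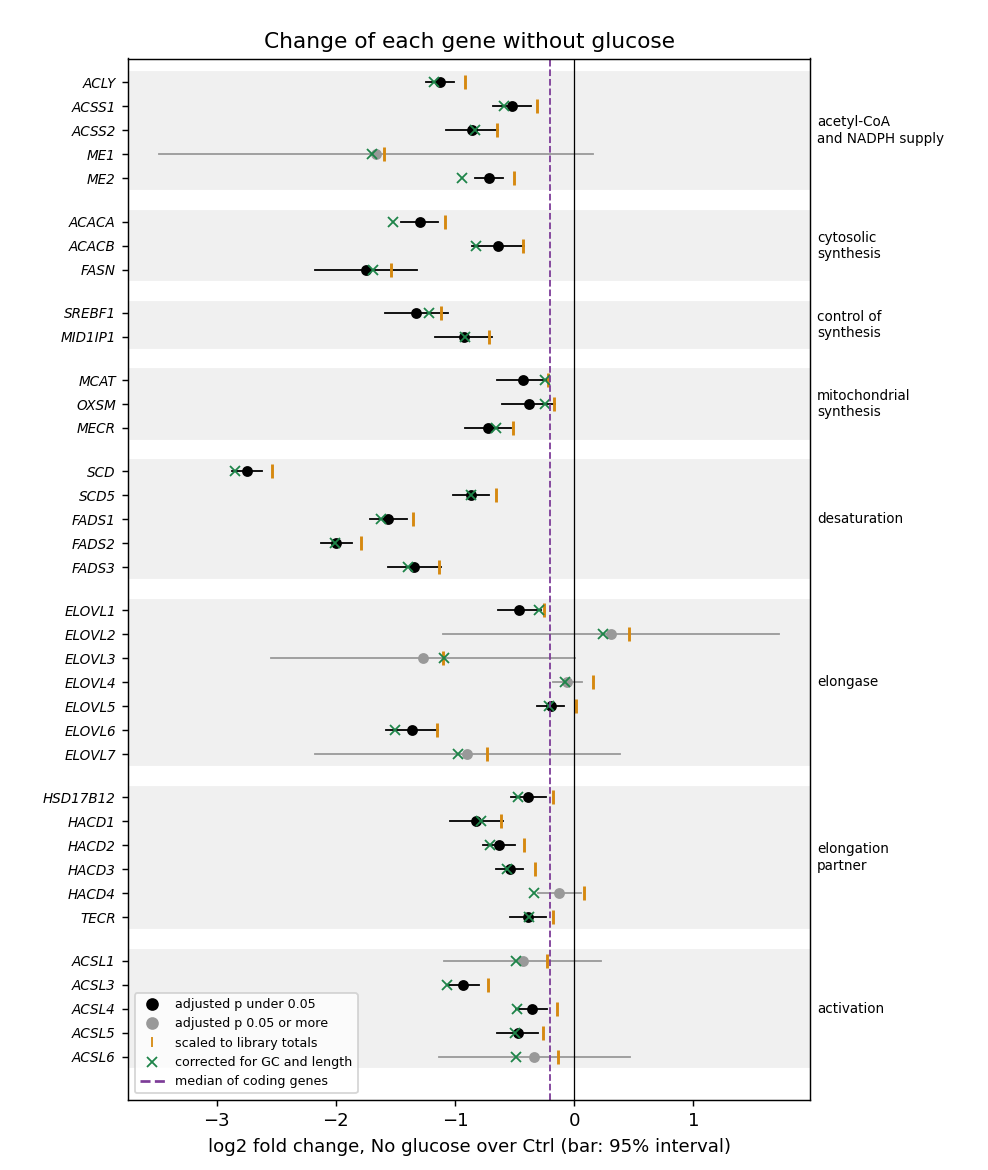
Log2 fold change of each gene (No glucose over Ctrl, limma) with its 95% interval, grouped by step; black points passed the threshold and grey ones did not, and the orange bars and green crosses give the values scaled to library totals and corrected for GC content and length; the dashed line is the median of well-expressed protein-coding genes. SCD lies furthest to the left at -2.74, all called genes lie left of 0, and with library totals the values of ELOVL4, ELOVL5 and HACD4 lie right of 0.

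Long-chain acyl-CoA synthetases activate fatty acids for every later use, and 3 of the 5 fell. The shares lower were 20.7% of all genes tested and 47.2% of the well-expressed protein-coding genes, so nothing is read from this count. ACSL3, found on the endoplasmic reticulum and on lipid droplets, had 2611 and 2387 normalized counts without glucose, against 4772 and 4766 in Ctrl. It had the deepest change of the family, with a log2 fold change of -0.93 ± 0.06 (SE, adjusted p = 5.9e-07). ACSL4, which prefers arachidonate and other polyunsaturated chains and is required for ferroptosis in many cells, had 3678 and 3403 without glucose, against 4553 and 4498 in Ctrl (-0.36 ± 0.06, adjusted p = 0.00061; 0.070 without CTRL_7). ACSL5, an enzyme of mitochondria and endoplasmic reticulum, had 508 and 521 without glucose, against 717 and 713 in Ctrl (-0.47 ± 0.08). ACSL4 made up 53.9% ± 0.242 of the family's level per kilobase without glucose and 45.8% ± 0.199 in Ctrl, and ACSL3 33.7% ± 0.434 without glucose and 42.8% ± 0.138 in Ctrl (SD, n = 2). Those shares did not overlap between groups. The liver and fat cell enzyme ACSL1 was low, with 36.4 and 21.0 normalized counts without glucose, against 34.3 and 41.5 in Ctrl, and its groups overlapped (log2 fold change -0.43 ± 0.30, adjusted p = 0.30; -0.81, adjusted p = 0.041 without ONG_9). ACSL6, best known from brain, had 10.6 and 12.6 without glucose, against 13.7 and 16.1 in Ctrl (adjusted p = 0.53).

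**Figure D4:**
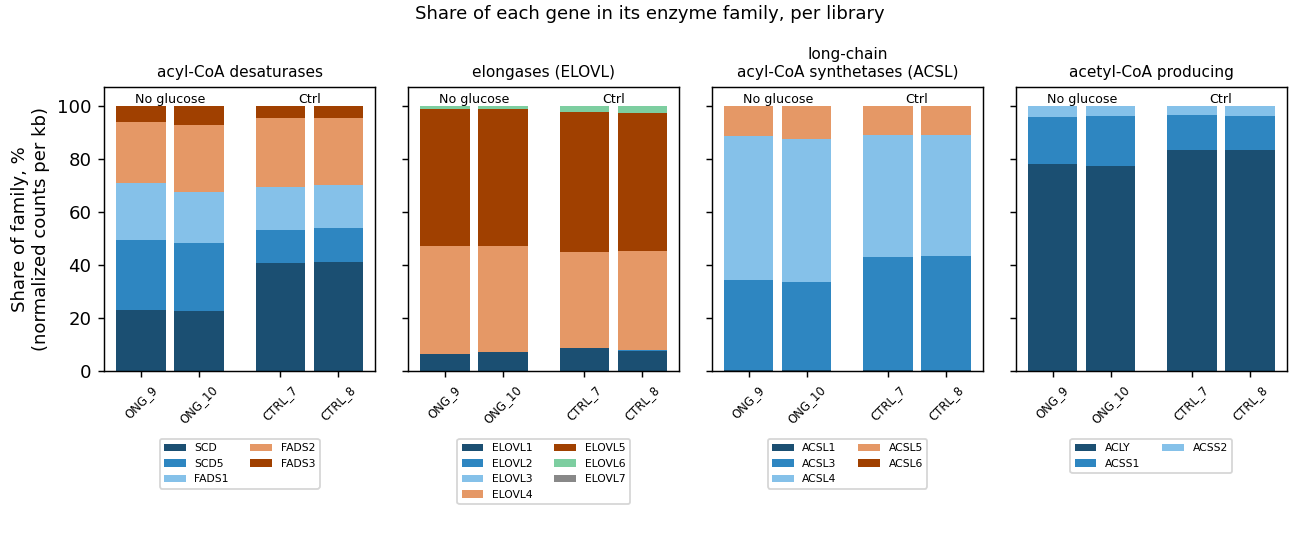
Share of each gene in the summed level of its enzyme family (normalized counts per kilobase of exon, in percent), 1 bar per library, for desaturases, elongases, long-chain acyl-CoA synthetases and acetyl-CoA producing enzymes. SCD holds 22.9% of the desaturase level without glucose and 41.1% in Ctrl, while ELOVL5 holds 51.7% of the elongase level without glucose and 52.2% in Ctrl.

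The mitochondrial pathway has its own enzymes, and its 3 member genes fell. Lower calls were also made for 20.7% of all genes tested and 47.2% of the well-expressed protein-coding genes. With only 3 genes, nothing is read from this count. The middle value of their log2 fold changes, -0.43, was close to that of activation (-0.43), elongases (-0.46) and their partners (-0.46). Falls were deeper for acetyl-CoA and NADPH supply (-0.86), control of synthesis (-1.13), cytosolic synthesis (-1.30) and desaturation (-1.56). MECR, the last reductase, had 379 and 406 normalized counts without glucose, against 667 and 630 in Ctrl (log2 fold change -0.72 ± 0.09, adjusted p = 5.6e-05). MCAT, which loads malonyl units onto the acyl carrier protein, had 450 and 512 without glucose, against 609 and 686 in Ctrl (-0.43 ± 0.10, adjusted p = 0.0050), and OXSM, the condensing enzyme, 456 and 390 without glucose, against 530 and 570 in Ctrl (-0.38 ± 0.10, adjusted p = 0.011). The calls of MCAT and OXSM depended on the setting. MCAT was not called without CTRL_8 (adjusted p = 0.14) or with library totals (0.15). OXSM was not called without ONG_10, CTRL_7 or CTRL_8 (0.068, 0.097 and 0.18) or with library totals (0.21). OXSM also shares 21.6% of its exon length with NGLY1 on the opposite strand, which had 3795 and 3541 normalized counts without glucose, against 5333 and 5465 in Ctrl.

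**Figure D5:**
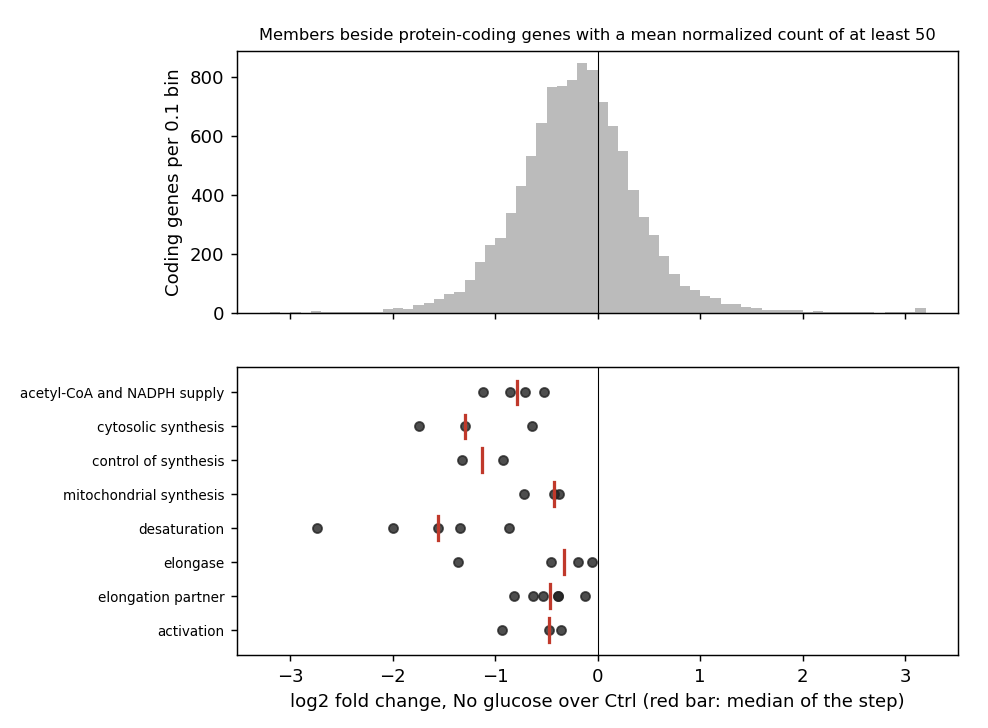
Top, number of well-expressed protein-coding genes (mean normalized count 50 or more) by log2 fold change (No glucose over Ctrl; the outermost bins hold all values beyond them); bottom, the 30 members at that level by step, with the median of each step in red. The 30 members lie between -2.74 and -0.06, while the median of the coding genes is -0.20.

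Among other genes of the pathway, listed by role, 62 of 110 tested fell and 9 rose, and their median log2 fold change was -0.38. Beside them stand 20.7% lower and 14.4% higher with a median of 0.04 among all genes tested, and 47.2% lower and 18.9% higher with a median of -0.20 among the well-expressed protein-coding genes. For uptake and binding, glycerolipid assembly and the liver X and glucose-sensing factors, the shares of genes lower given below are close to that 47.2%, so nothing is read from them about these lists. The shares for the SREBP processing and desaturase electron chain lists lie little above it on few genes, and nothing is read from them either. All 10 genes of citrate and NADPH supply fell. SLC25A1, the carrier that exports citrate from mitochondria, averaged 304 ± 33.8 normalized counts without glucose and 896 ± 20.8 in Ctrl (SD, n = 2; log2 fold change -1.56 ± 0.10, SE), and the NADPH-producing isocitrate dehydrogenase IDH1 (-1.30 ± 0.08) and the cytosolic aconitase ACO1 (-0.96 ± 0.06) fell too. Of 9 genes of SREBP processing, 5 fell and none rose, and their median log2 fold change was -0.17, no deeper than the -0.20 of the protein-coding genes. INSIG1, which retains SREBP in the endoplasmic reticulum and is itself an SREBP target, averaged 2689 ± 63.8 without glucose and 10419 ± 81.6 in Ctrl (-1.95 ± 0.05, adjusted p = 3.4e-09), followed by SREBF2 (-1.07 ± 0.07) and the site-2 protease gene MBTPS2 (-0.44 ± 0.08). Of the 4 genes listed for malonyl-CoA, the release of fatty acids and related acyl units, 1 rose and 1 fell. MLYCD, malonyl-CoA decarboxylase, which runs against synthesis, had 553 and 582 normalized counts without glucose, against 328 and 361 in Ctrl, and rose by 0.72 ± 0.09 on the log2 scale (adjusted p = 9.0e-05), while the acetoacetyl-CoA synthetase AACS fell by 0.63 ± 0.08.

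Coenzyme A and acyl carrier genes numbered 14, of which 11 fell and 1 rose. HSD17B8 (log2 fold change -1.45 ± 0.14) and CBR4 (-0.80 ± 0.07), which together form the ketoreductase of mitochondrial synthesis, and the acyl carrier protein NDUFAB1 (-0.97 ± 0.06) fell, and PPCS, an enzyme of coenzyme A synthesis, rose (0.53 ± 0.08). Of 7 tested genes listed with the desaturase electron chain 4 fell and none rose, among them CYB5B (-0.89 ± 0.06), CYB5R3 (-0.55 ± 0.10) and CYB5R1 (-0.41 ± 0.09). That list also holds sphingolipid desaturases and a hydroxylase-domain gene, and a sphingolipid desaturase is among the 4 that fell. In fatty acid uptake and binding, 9 of 18 tested genes fell and 1 rose. FABP5, a fatty acid binding protein, averaged 142 ± 9.82 normalized counts without glucose and 555 ± 15.1 in Ctrl (SD, n = 2; log2 fold change -1.96 ± 0.11, SE). The acyl-CoA binding protein DBI (-1.53 ± 0.06) fell as well, and the Golgi protein ACBD3 rose (0.26 ± 0.06). Glycerolipid assembly had 14 of 29 tested genes lower and 2 higher, among them the phospholipid enzymes LPCAT1 (-1.24 ± 0.12), PCYT2 (-1.13 ± 0.12) and AGPAT2 (-1.05 ± 0.16), which fell, and the phosphatidate phosphatase LPIN1, which rose (0.55 ± 0.06). Of 12 tested liver X and glucose-sensing factors and their partners 6 fell and 3 rose, with RXRA (-0.75 ± 0.16), NFYB (-0.45 ± 0.06) and MLX (-0.38 ± 0.07) lower and RXRB higher (0.37 ± 0.11). Besides PRKAA2, which rose, the AMPK genes that passed the test were its upstream kinase STK11 (-0.65 ± 0.13) and PRKAG1 (-0.26 ± 0.07), of 7 tested. Without CTRL_7 the calls of MBTPS2, RXRA, RXRB, MLX, CYB5R1, ACBD3, STK11 and PRKAG1 were lost, with adjusted p from 0.052 for MBTPS2 to 0.20 for PRKAG1. Without CTRL_8 those of RXRB (0.15), CYB5R1 (0.097), ACBD3 (0.12) and PRKAG1 (0.16) were lost. With library totals the calls of STK11 (0.062), CYB5R1 (0.0999) and PRKAG1 (0.52, log2 fold change -0.05) were lost, and with DESeq2 that of RXRB (0.11).

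In the authors' deposited table, 28 of the 36 members had an adjusted p under 0.05 with a lower level without glucose and none with a higher one, and 4 had no adjusted p; the 28 were those called here. With edgeR's quasi-likelihood test on the recovered reads 28 members were also lower and none higher. Under every one of the 15 alternatives, 22 members stayed called lower; the 6 that did not were MCAT, OXSM, ELOVL1, ELOVL5, TECR and ACSL4.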

How the data were processed

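RNA-seq libraries (75 bp single-end reads from a total RNA kit that keeps strand, per the labels' protocols) went through STAR 2.6.0c, RSEM 1.3.0 and DESeq2 1.18.1 with genome build hg38, per the submitters' processing notes; the annotation release and counting strand are not given in the sources used here. The signal values are gene counts scaled by the authors with 1 size factor for each library. The deposited table also holds the authors' own log2 fold changes, score values (test statistics) and p-values, which served only to count their calls. The fold changes and p-values given above come from the tests described below. Whole reads were recovered for 100% of values above 0 (within 0.01 of a whole number). The ONG columns were assigned to No glucose, the single group other than Ctrl in the table. Repeated entries (60868 rows, 60609 identifiers) were merged. Lengths, GC content and coordinates came from GENCODE 29 (58457 identifiers matched).

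Testing used limma 3.58.1 with a mean-variance trend (R 4.3.3). Its input was log2(normalized count + 1), a scale that understates changes of low genes, for genes whose mean normalized count reached 1, which all 36 members did; p-values were Benjamini-Hochberg adjusted over all genes tested, with a threshold of 0.05. Alternatives were edgeR 4.0.16, DESeq2 1.42.0 and limma-voom on recovered reads, other scalings, pseudocounts and filters, and leaving out each library. The method was also run on simulated data, with few genes changed and the true scaling supplied. These data differ on both points, so no support is drawn from that run. The members, lists and rule for other named genes (per list, up to 3 called genes in the main direction and 1 in the other, by size of change, at a mean normalized count of 50 or more) were chosen with earlier results of these data known; 1 gene that the rule names is not reported here. PRKAA2, RAI1, NGLY1 and DNAJB1 were also described for the tagged subunit or an exon overlap.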

Additional observations from a re-analysis of the deposited data

How the results depend on the processing

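The count of members called lower was 28 and stayed within 1.5 times that under all 15 alternatives, from 25 with scaling to library totals to 29 after the GC and length correction, and from 23 to 30 when 1 library was left out (23 without CTRL_7, 25 without CTRL_8, 27 without ONG_10, 30 without ONG_9). No member was called higher except with library totals, where 1 was, ELOVL4 (log2 fold change 0.15); ELOVL5 (0.014) and HACD4 (0.087) also changed sign there. The members' median of -0.72 was -0.76 with edgeR and TMM, -0.76 with TMM scaling, -0.51 with library totals, -0.63 with a pseudocount of 5, -0.68 with a minimum mean of 10, -0.80 after the GC and length correction (added after the data were seen), and -0.74 to -0.63 with 1 library left out. Library totals moved the median of all genes from 0.04 to 0.23 and the share of calls that were higher from 40.9% to 61.5%, and the GC and length correction moved that median to 0.16; less these shifts the members' medians were -0.70 and -0.91. Genes called across the table numbered 9643, and 5345 to 10559 with 1 library left out (5345 without CTRL_7, 6101 without CTRL_8, 8720 without ONG_10). Where a library is left out, the lone library of its group is assumed to vary like the other group. Over members and alternatives, direction and call were kept in 517 cases, while 11 lost the call, 3 gained it and 3 changed sign; for the other pathway genes taken by the naming rule, 434 were kept and 16 lost the call. The causes of these changes were not tested. No paired analysis was possible because the columns carry no replicate number. The No glucose libraries are the shallowest, which limits ME1, ELOVL2, ELOVL3, ELOVL7 and ACSL6, and intervals cover only the spread between these libraries.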
